A study of Mus musculus with 2 samples.

Results

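Imprinted genes are expressed mainly or only from the copy inherited from one parent, and 38 of them were followed here in mouse haematopoietic stem and progenitor cells that carried either of 2 forms of PML/RARa, the fusion protein of acute promyelocytic leukaemia. The 38 genes were chosen by symbol from a list, and all 38 were found among the 34745 gene models of the RNA-seq tables. They lie in 17 clusters on 9 chromosomes. Both libraries came from C57BL/6 mice that had been given 5-fluorouracil, which depletes cycling marrow cells. Progenitors were isolated from femoral marrow with a kit, transduced with lentivirus, grown with SCF, IL-3 and IL-6, and sorted for transduction. One library (WT) carried PML/RARa (WT) and the other (2KR) carried PML/RARa (2KR). The series title names 2 lysines of the fusion as its subject. Cells with the vector alone (pMSCV) were not analysed here, and the sources used here do not give the age or number of the mice.

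An imprint is a mark of DNA methylation that is laid down in the egg or the sperm, kept in the body's cells through development and erased again in the germ line. A few genes, some known mainly from placenta, are imprinted by histone methylation from the egg instead. The mark sits on a control region, and the genes of a cluster often answer to 1 such region. On one parental chromosome a long noncoding RNA may be made that silences its neighbours, while the other chromosome expresses the protein-coding genes. Several imprinted genes restrain or promote growth, and some, such as Cdkn1c, H19 and the Dlk1-Meg3 cluster, are known from work on the quiescence of blood stem cells. The tables give the total of both parental copies. Allele-specific expression was not measured, so a difference in total level and a gain or loss of imprinting cannot be told apart.

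The libraries held 17606168 (WT) and 20462011 (2KR) counts. With 1 library per form there is no replicate check, no test was run and no p-value is given. Levels are CPM, counts scaled by the TMM method and by library size. A ratio is 2KR over WT in CPM, and the values in brackets after it are an exact 95% interval that covers counting error only. A gene was counted as 2-fold different when log2 of (CPM + 1) differed by at least 1 between the libraries and the mean was at least 1 CPM. Of 12466 models at that mean, 7.22% were 2-fold different, 2.66% higher and 4.56% lower in 2KR. The cells had high counts of the progenitor genes Kit (1359 and 1159 CPM in WT and 2KR), Ptprc (387 and 299) and Cd34 (388 and 723), whereas Spi1 was low (4.86 and 3.98). In such bulk samples, fewer cells of a type and less RNA per cell cannot be told apart.

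The upstream sequences of 3 members show the setting of 2 clusters described below. Kcnq1ot1 and Airn are the paternally made noncoding RNAs of the Kcnq1 and Igf2r clusters, and Igf2r is the coding gene across which Airn is transcribed in the opposite direction. Each sequence is the 250 bases before the RefSeq start on GRCm38.p6, 5′ to 3′ on the strand of the gene, and capitals mark CG dinucleotides, the sites at which mammalian DNA is methylated. The Kcnq1ot1 window is chr7:143296548-143296797 on the minus strand, the Igf2r window chr17:12769707-12769956 on the minus strand and the Airn window chr17:12741061-12741310 on the plus strand.
Kcnq1ot1: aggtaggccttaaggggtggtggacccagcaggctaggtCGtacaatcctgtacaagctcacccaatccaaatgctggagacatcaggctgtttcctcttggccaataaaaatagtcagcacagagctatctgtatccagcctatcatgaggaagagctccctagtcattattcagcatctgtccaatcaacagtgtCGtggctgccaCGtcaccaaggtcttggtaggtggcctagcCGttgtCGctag
Igf2r: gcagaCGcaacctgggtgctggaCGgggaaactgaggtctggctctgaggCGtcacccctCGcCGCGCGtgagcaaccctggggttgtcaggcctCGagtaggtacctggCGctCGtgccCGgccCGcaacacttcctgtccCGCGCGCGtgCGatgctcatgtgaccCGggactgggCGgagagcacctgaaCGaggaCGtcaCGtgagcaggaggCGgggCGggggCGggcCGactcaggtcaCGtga
Airn: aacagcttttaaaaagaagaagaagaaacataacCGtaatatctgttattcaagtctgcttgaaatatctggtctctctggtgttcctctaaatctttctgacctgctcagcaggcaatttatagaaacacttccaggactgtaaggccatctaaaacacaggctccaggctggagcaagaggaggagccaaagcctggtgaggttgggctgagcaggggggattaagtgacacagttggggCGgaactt
The Igf2r window held 27 CG dinucleotides, the Kcnq1ot1 window 5 and the Airn window 2, against a median of 6 over 32851 windows of the same length. The windows hold no bases after the RefSeq start, so these numbers do not give the CG content of the control regions.

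Most imprinted genes were low or at 0 in both libraries, and the members with mixed or tissue-restricted imprinting were the best represented: all 7 had at least 10 counts in either library, against 8 of 21 paternally expressed and 3 of 10 maternally expressed members. Of the 38, 11 had 0 counts in both libraries, beside 49.2% of all models. Another 9 had between 1 and 9 counts in the higher library, beside 3925 of 34745 models. At least 10 counts were reached by 18, beside 13717 of 34745 models. A mean of 1 CPM was reached by 14 members, beside 12466 of 34745 models. Most members are protein-coding, whereas all models include many noncoding ones. The shares among protein-coding models alone were not taken, so whether low levels were particular to the members was not tested. All 14 were above 1 CPM in both libraries, so none was kept through 1 library alone. H19 had the lowest mean among the 14 (2.05 CPM), and Ddc and Grb10 stood just outside (0.976 and 0.923).

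**Figure D1:**
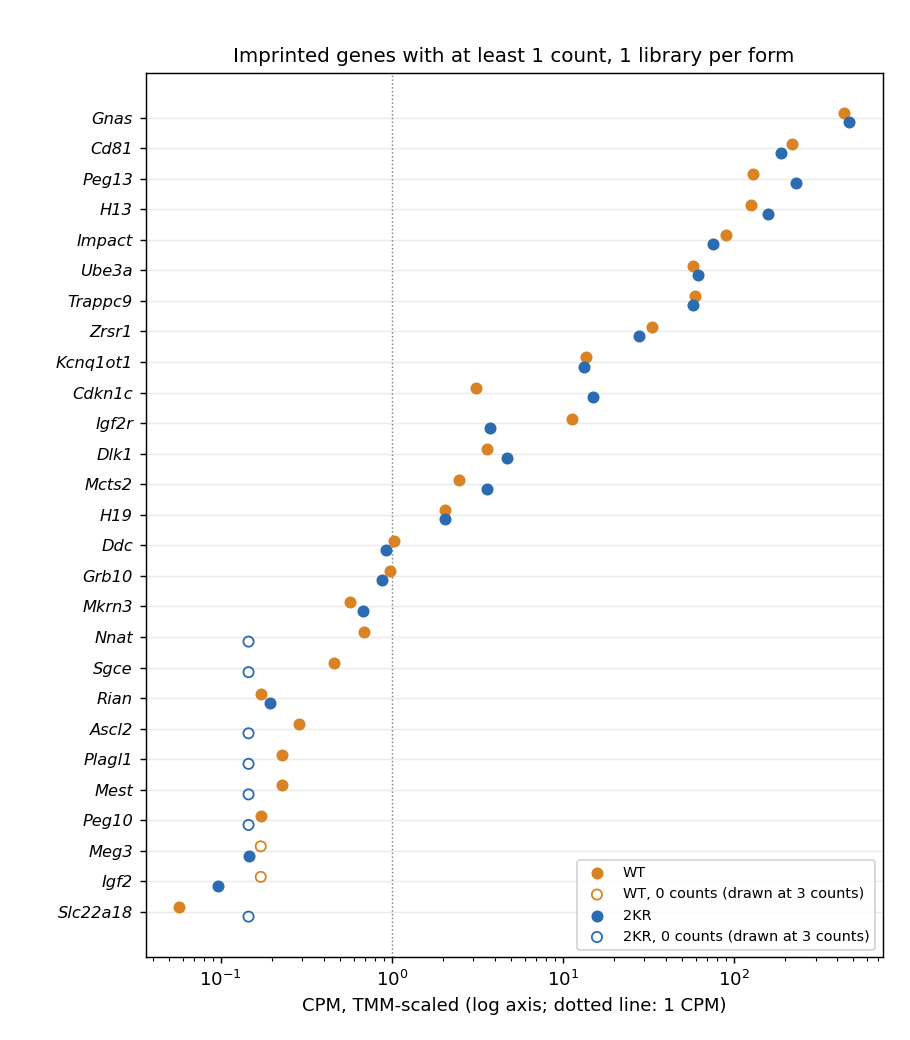
CPM (log axis) of the 27 imprinted genes with at least 1 count, 1 point per library, with 0 counts drawn as an open circle at the level of 3 counts. Cdkn1c and Igf2r are the members above 1 CPM whose points lie farthest apart, and 7 genes at the bottom have 2KR at 0.

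Per length, the most abundant members were Cd81, Gnas and Peg13. On the scale of CPM per kilobase of exon, Cd81, a tetraspanin of the cell surface whose imprinting is known in placenta, had a level of 76.1 in WT and 65.9 in 2KR. Gnas, the complex locus of the stimulatory G protein alpha subunit, which makes maternal, paternal and biallelic transcripts, had 39.1 and 42.2. Peg13, a noncoding RNA made inside an intron of Trappc9, had 27.5 and 48.7. These 3 lay at the percentiles 95.99, 91.2 and 90.4 of the models with a mean of 1 CPM. Impact, a regulator of the stress kinase GCN2, followed with 17.6 and 14.7, and H13, which encodes signal peptide peptidase, was close behind with 14.2 and 17.8. Kcnq1ot1 shows why length matters: its 240 and 275 counts were spread over 93092 exon bases of the GENCODE M21 model and gave 0.147 and 0.143 CPM per kilobase.

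Of the 14 members with a mean of 1 CPM, 1 was 2-fold higher in 2KR, Cdkn1c, and 1 was 2-fold lower, Igf2r, beside 2.66% and 4.56% of all models (7.22% in either direction). The median log2 ratio of the 14 was 0.04, beside 0.02 over all models, with 7 ratios above 1 and 7 below. The counting interval lay wholly above 1 for 4 members and wholly below 1 for 4, and it held 1 for 6. At a limit of 1.5-fold, 2 members were higher, Cdkn1c and Peg13, and 1 was lower, Igf2r, beside 6.92% and 9.67% of all models (16.6% in either direction). At 4-fold there were 0, beside 0.417% and 1.12% (1.54% in either direction), since the pseudocount keeps Cdkn1c just under that limit. Over all models, 60.1% had an interval that did not hold 1. Grouped by the parental copy that is usually active, the paternally expressed members had a median of 0.14 over 6 genes with 0 called, and those with mixed or tissue-restricted imprinting had 0.10 over 5 genes with 0 called. The 3 maternally expressed members with a mean of 1 CPM had a median of -0.01 and included both called genes.

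**Figure D2:**
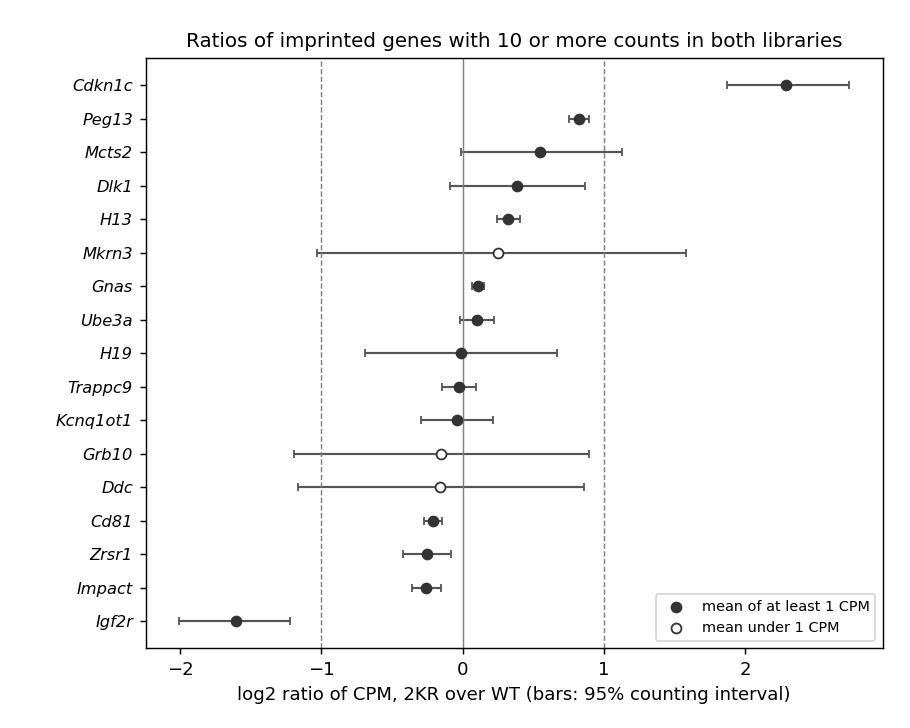
log2 ratio of CPM, 2KR over WT, without a pseudocount, for the 17 imprinted genes with 10 or more counts in both libraries; bars are 95% counting intervals and dashed lines mark 2-fold. Cdkn1c lies beyond 2-fold on the higher side and Igf2r on the lower side, Peg13 is under 2-fold with a narrow interval, and the other intervals reach or lie close to 0.

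Cdkn1c encodes p57, an inhibitor of cyclin-dependent kinases that is expressed from the maternal chromosome and holds stem cells out of the cell cycle. WT gave 54 counts of it and 2KR gave 311, which is 3.09 and 15.1 CPM, and it was 4.89-fold higher in 2KR (3.65 to 6.65). It was the member with the largest ratio, and 2.66% of all models passed the same rule on the higher side. Cdkn1b, a relative of p57 in the same inhibitor family, went the other way, with 233 and 179 CPM, 1.30-fold lower in 2KR (1.24 to 1.36).

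The rest of the Kcnq1 cluster around Cdkn1c (ENSMUSG00000037664, chromosome 7, 143458350 to 143461050) differed little or was barely read. Kcnq1ot1 (143212155 to 143296549), the paternally made RNA that silences this cluster in cis, stood at 13.7 CPM (WT) and 13.3 CPM (2KR), with a ratio of 0.972 (0.815 to 1.16). Cdkn1c counts were 0.225 times those of Kcnq1ot1 in WT and 1.13 times in 2KR. Per kilobase of exon, Cdkn1c stood above Kcnq1ot1 in both libraries, at 10.3 times in WT and 51.6 times in 2KR. Kcnq1, the potassium channel gene that Kcnq1ot1 overlaps in antisense, had 1 and 2 counts. Slc22a18, a transporter of the organic cation family, had 1 and 0 counts, and Phlda2, a brake on placental growth, had 0 in both. Ascl2, a transcription factor of the placenta, had 5 and 0 counts, and its interval reaches down to 1.08-fold lower.

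At the edges of the cluster, expressed genes stayed under 2-fold. Cd81 had 3830 and 3909 counts, or 219 and 189.7 CPM, and was 1.15-fold lower in 2KR (1.10 to 1.21). R74862, a noncoding model that overlaps it on the other strand, had 28 and 50 counts. The nearest expressed coding genes on the sides of Cdkn1c were Tssc4, 387 kb away, with 21.96 and 22.03 CPM, and Nap1l4, a histone chaperone gene 52.5 kb away, with 124 and 158 CPM, 1.28-fold higher (1.21 to 1.35). Tspan32, a tetraspanin of blood cells, was 1.46-fold lower (1.34 to 1.60), and Osbpl5, an oxysterol-binding protein gene, was 1.27-fold lower (1.16 to 1.38). Within this stretch, Cdkn1c was the gene with a 2-fold difference, flanked by ratios on either side of 1.

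The neighbouring Igf2-H19 cluster had low counts. H19, a maternally expressed noncoding RNA and the host of a microRNA, had 36 WT and 42 2KR counts, equal to 2.06 and 2.04 CPM, with a ratio of 0.990 (0.619 to 1.59). A 2-fold difference in H19 lies outside that interval, which leaves out variation between cultures. Igf2, the fetal growth factor that shares enhancers with H19 and is expressed from the other chromosome, had 0 and 2 counts.

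**Figure D3:**
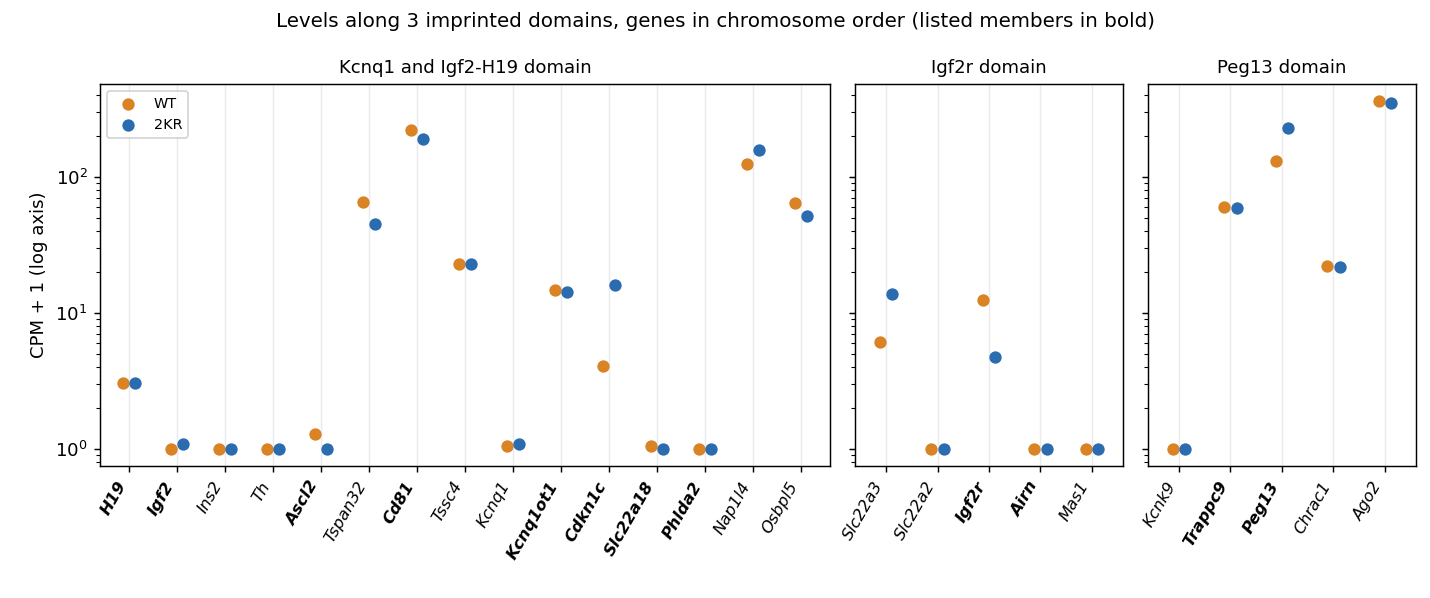
CPM + 1 (log axis) of genes in chromosome order along the Kcnq1 and Igf2-H19, Igf2r and Peg13 clusters, 1 point per library, with the 38 members in bold. Cdkn1c and Slc22a3 are higher in 2KR, Igf2r is lower, and Peg13 is higher beside a Trappc9 that has nearly the same level in both libraries.

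Igf2r encodes the receptor that sorts lysosomal enzymes by their mannose 6-phosphate and removes IGF2 from the cell surface. It is expressed from the maternal chromosome in most tissues. The model (ENSMUSG00000023830, chromosome 17, 12682406 to 12769664) had 199 WT and 77 2KR counts, equal to 11.4 and 3.74 CPM, and was 3.05-fold lower in 2KR (2.33 to 4.02). On the lower side 4.56% of all models passed the same rule. With a pseudocount of 5 the log2 ratio of Igf2r was -0.91, under 2-fold. Deposited FPKM was 1.16 in WT and 0.386 in 2KR, and a pseudocount of 1 gave -0.64, also under 2-fold. M6pr and Igf1r, the other receptors of its ligands that were looked at, did not share that difference. M6pr, which binds the same sugar tag, had 183 and 182 CPM, a ratio of 0.994 (0.948 to 1.04), and Igf1r, the signalling receptor for IGF2, was 1.28-fold higher (1.17 to 1.40).

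Airn (12741311 to 12860122), whose transcription across the Igf2r promoter silences that gene on the paternal chromosome, had 0 counts in both libraries. A count of 0 allows up to 0.172 CPM in WT and 0.146 in 2KR, taken at 3 counts. The Airn model used for matching has 3597 bases of exon in a span of 118812, so unspliced RNA between the exons would not be seen in gene counts. Slc22a3, an organic cation transporter gene 175 kb away that belongs to the same imprinted cluster in placenta, had 90 and 262 counts, or 5.15 and 12.7 CPM, and was 2.47-fold higher in 2KR (1.94 to 3.17). It too was under the 2-fold rule with a pseudocount of 5 and on deposited FPKM. The ratio of Slc22a3 to Igf2r counts was 0.452 in WT and 3.40 in 2KR, and per kilobase of exon it was 0.933 and 7.02. Slc22a2, between them, and Mas1, on the far side, had 0 counts in both libraries, and Mrpl18, the nearest expressed gene on that side, had 53.99 and 57.0 CPM.

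Peg13 and Trappc9 share a locus on chromosome 15 and differed in their ratios. Peg13 (ENSMUSG00000106847, 72805600 to 72810324) had 2274 WT and 4738 2KR counts, equal to 130.1 and 229.9 CPM, and was 1.77-fold higher in 2KR (1.68 to 1.86), under the 2-fold rule. Trappc9 (72589621 to 73061204), a subunit gene of a vesicle tethering complex, had 1030 and 1192 counts, or 58.9 and 57.8 CPM, a ratio of 0.982 (0.903 to 1.07). Both models are on the minus strand, and their exons share 0 bases in GENCODE M21, so exonic reads of 1 model do not fall in the other. Reads of unspliced Trappc9 RNA would fall in the Peg13 model as well. Ago2, the slicer of RNA interference, had 361 and 348 CPM, Chrac1 had 21.3 and 20.6, and the channel gene Kcnk9 had 0 counts in both. Among these genes of the domain, Peg13 was the one with a ratio of 1.5 or more. Beyond Kcnk9, the nearest expressed coding gene was Fam135b, 862 kb from Trappc9, with 31 WT and 8 2KR counts. Fam135b was 4.57-fold lower in 2KR (2.05 to 11.5) and stayed just under the 2-fold rule because of the pseudocount.

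H13 and Mcts2 form a nested pair on chromosome 2. H13 had 2213 WT and 3264 2KR counts, equal to 127 and 158 CPM, and was 1.25-fold higher (1.19 to 1.32). Mcts2, a gene copied from Mcts1 by reverse transcription into an intron of H13, had 43 and 74 counts, a ratio of 1.46 (0.990 to 2.18). The Mcts2 transcript shares at most 29 bases in a row with Mcts1 transcripts, and 0% of its 50-base windows are found there, so longer reads can be told apart. Mcts1, on the X chromosome, had 22.1 and 23.7 CPM. The nearest expressed genes on the sides of H13 were both 2-fold lower in 2KR. Id1, an inhibitor of basic helix-loop-helix factors 27.6 kb away, was 2.36-fold lower (1.93 to 2.88), and Zcchc3, 254 kb away, was 2.53-fold lower (2.07 to 3.11).

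The other paternally expressed genes with appreciable levels had small differences. Impact had 1578 WT and 1555 2KR counts, equal to 90.3 and 75.5 CPM, 1.196-fold lower in 2KR (1.11 to 1.28). Zrsr1, a splicing factor gene that arose as a copy inside Commd1, had 584 and 578 counts, or 33.4 and 28.1 CPM, 1.19-fold lower (1.06 to 1.34). Its host Commd1 had nearly the same ratio, 1.19-fold lower (0.998 to 1.41), and their exons share 412 bases on opposite strands. Gm28048, which spans the same stretch, had 22 and 56 counts. Zrsr2, the X-linked relative of Zrsr1, had 46.7 and 47.4 CPM, and the pair shares at most 37 bases in a row.

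Gnas was the member with the most counts, 7644 (WT) and 9726 (2KR), equal to 437 and 472 CPM, 1.08-fold higher (1.05 to 1.11). Its gene count sums transcripts of different parental origin, and the antisense RNA Nespas had 11 counts in each library. Ube3a, the ubiquitin ligase of Angelman syndrome, which is imprinted in neurons, had 1003 and 1266 counts, or 57.4 and 61.4 CPM, a ratio of 1.07 (0.985 to 1.16). Its neuronal antisense partner Snhg14 had 0 counts in both libraries.

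The other genes of the Snrpn cluster were nearly silent. Snrpn, a splicing protein gene of neurons, and the MAGE family genes Ndn and Magel2 had 0 counts in both libraries. Mkrn3, a ring finger gene known as a brake on puberty, had 10 and 14 counts. The Snrpn model overlaps Snurf and Gm38393, which also had 0 counts; the sources used here do not say how reads shared by overlapping models were counted.

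In the Dlk1-Meg3 cluster, Dlk1 was the member with a mean of 1 CPM. Dlk1, a transmembrane ligand of fetal progenitors, had 63 WT and 97 2KR counts, equal to 3.60 and 4.71 CPM, a ratio of 1.31 (0.942 to 1.82). Of the maternally expressed noncoding RNAs of the same cluster, Meg3 had 0 and 3 counts, Rian 3 and 4, and Mirg 0 in both. Rtl1, a gene of retrotransposon origin needed in placenta, had 0 in both. The 3 members of the Peg3 cluster (Peg3, Usp29 and Zim1) had 0 counts in both libraries, as did Nap1l5, although its host gene Herc3 had 201 and 151 counts. In all, 7 of the 17 clusters held no member with a mean of 1 CPM.

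For 7 members the few counts all came from WT. Of these, 5 are paternally expressed, and Ascl2 and Slc22a18, given above, are maternally expressed. The paternally expressed Igf2 and the maternally expressed Meg3 had counts in 2KR alone. Among the 5, the counting interval left out a ratio of 1 for Nnat and Sgce but not for Peg10, Mest and Plagl1. Nnat, a small membrane protein gene of neurons, had 12 WT and 0 2KR counts. It was 4.71-fold lower when 2KR was set at a floor of 3 counts (the interval reaches down to 3.27-fold). Sgce, epsilon-sarcoglycan, had 8 counts, all in WT, and was 3.14-fold lower in 2KR at the same floor (the interval reaches down to 2.01-fold). Peg10, which shares a start region with Sgce on the opposite strand, had 3 and 0. Mest, a hydrolase-like gene of mesoderm, and Plagl1, a zinc finger gene that restrains growth, had 4 and 0 counts each.

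The direction of these low counts can be set beside all models. Of 7 members with 1 to 9 counts in WT, 6 had 0 in 2KR, beside 32.4% of the 3358 models in that range. In the reverse direction, 2 of 3 members with 1 to 9 counts in 2KR had 0 in WT, Igf2 and Meg3, beside 32.4% of 3211 models. The 7 members read in WT and at 0 in 2KR had 37 counts in all. Blcap, the gene in which Nnat lies, had 30.9 and 28.3 CPM, and Copg2, which overlaps Mest, had 59.8 and 62.4. Grb10, an adaptor protein that dampens insulin signalling, had 17 and 18 counts, and its neighbour Ddc, the enzyme that makes dopamine, had 18 and 19.

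The genes that set, keep and read imprints were nearly all expressed. Of 30 such genes, 26 had a mean of 1 CPM, and the other 4, the germline factors Dnmt3l, Dppa3, Ctcfl and Zfp42, had 0 counts in both libraries. Of the 26, 1 was 2-fold higher in 2KR and 0 were 2-fold lower, beside 2.66% and 4.56% of all models, and their median log2 ratio was -0.04. The gene called was Dnmt3b, a de novo DNA methyltransferase, with 653 WT and 2603 2KR counts, equal to 37.3 and 126 CPM, 3.38-fold higher (3.10 to 3.69). Hells, a chromatin remodeller needed for DNA methylation, was 1.71-fold higher (1.59 to 1.83).

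Dnmt1, which copies methylation to new DNA strands, had 480 and 578 CPM, 1.205-fold higher (1.17 to 1.24). Trim28, the corepressor that is brought to imprinted control regions, had 412 and 502 CPM, 1.22-fold higher (1.18 to 1.26). Zfp57, the zinc finger protein that binds methylated control regions and brings Trim28 to them, was 1.46-fold lower (1.31 to 1.63), from 40.6 to 27.8 CPM. Tet1, which oxidises methylated cytosine, was 1.60-fold lower (1.45 to 1.77), from 51.5 to 32.1 CPM. Over the 26 factors, 11 ratios were above 1 and 15 below, and the counting interval held 1 for 6.

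**Figure D4:**
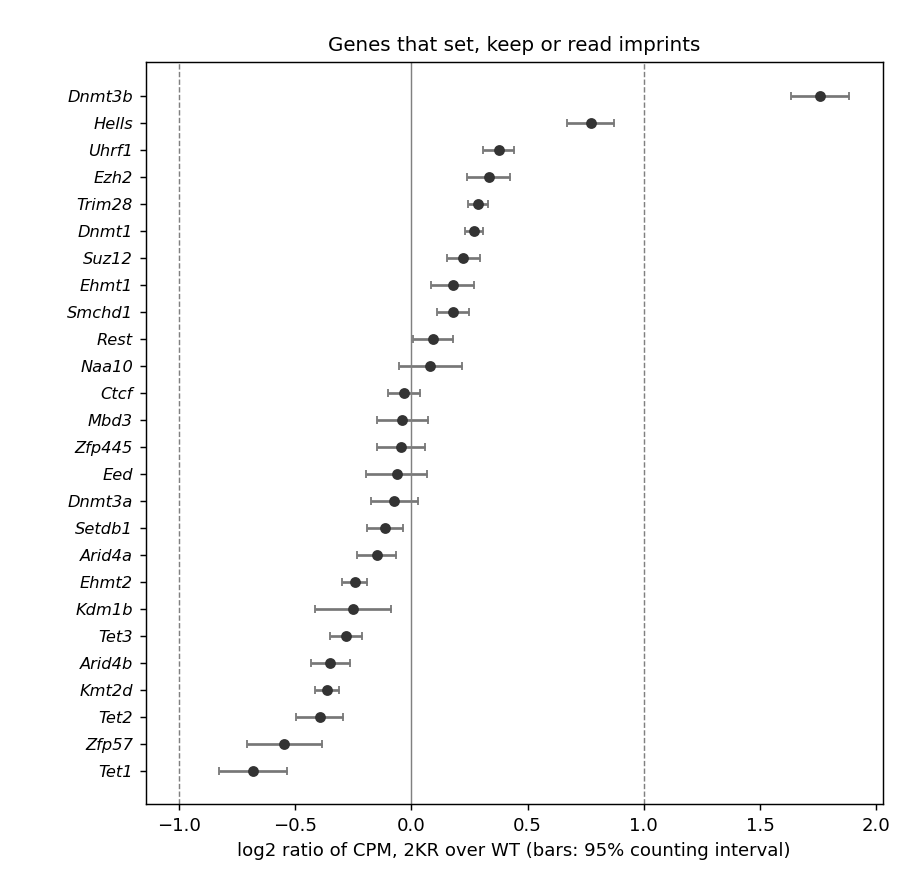
log2 ratio of CPM, 2KR over WT, for 26 genes that set, keep or read imprints, with 95% counting intervals as bars and 2-fold as dashed lines. Dnmt3b is the gene beyond 2-fold, Hells follows on the higher side, and Tet1 and Zfp57 have the lowest ratios.

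ZFP57 recognises the hexamer TGCCGC when it is methylated, and the 250 bases upstream of the members were searched for it on both strands (the other strand reads GCGGCA; overlapping matches were counted). RefSeq windows were matched for 30 of the 38 members and gave 44 windows. The hexamer was in 7 of these windows, 15.9%, and in 8.68% of 32851 windows of all genes. It holds a CG, and member windows had a median of 10 CG dinucleotides, against 6 over all windows. That difference in CG was not taken into account. The windows belong to Mcts2, Mest, Nap1l5, Plagl1, Zim1 and Meg3, and 2 of them are nearly the same stretch of Mest. Of these 6 genes, Mcts2 was the one with at least 10 counts in either library. The 3 sequences printed above do not hold it. No binding or methylation was measured.

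Among 52 further genes reported as imprinted in some tissue, 29 had a mean of 1 CPM, 1 of them 2-fold higher in 2KR and 2 of them 2-fold lower, beside 2.66% and 4.56% of all models (7.22% in either direction). Their median log2 ratio was -0.07. Gab1, an adaptor of growth factor receptors, had 132 counts in WT and 5 in 2KR and was 31.1-fold lower (13.001 to 97.4). Ampd3, an AMP deaminase, had 63 and 19 counts, 3.91-fold lower (2.31 to 6.91). The gene on the higher side was Slc22a3, described above. Htr2a, a serotonin receptor, had 10 and 42 counts, a ratio of 3.56 (1.76 to 7.97) that stayed under the rule because of the pseudocount. Atp10a and Ago2 had the highest levels, with 332 and 314 CPM and 361 and 348 CPM.

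Over all 14 members with a mean of 1 CPM, the nearest expressed coding genes that were not themselves among the 38 gave 20 distinct neighbours, of which 1 was 2-fold higher and 2 were 2-fold lower, beside 7.22% of all models in either direction. The neighbours called were Slc22a3, Id1 and Zcchc3. Their median log2 ratio was 0.04.

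Markers of other cell types also differed between the libraries. Mast cell and basophil markers summed to 6419 CPM in WT and 3347 in 2KR, of which Cpa3 gave 5468 and 2525. Of the 6 at a mean of 1 CPM, 5 were at least 2-fold lower. The other, Mcpt8, was higher, with 190 and 450 CPM, and Fcer1a was at 0 in both. Monocyte and macrophage markers summed to 255 and 114 CPM, with 2 of 5 such genes lower and 1 higher, and megakaryocyte markers to 1001 and 1295 CPM, with 2 of 4 higher. Endothelial markers summed to 16.9 and 29.2 CPM, with 1 of 5 higher and Emcn at 0. Erythroid markers summed to 15.6 and 25.9 CPM with 0 of 3 called and Hbb-bs at 0. Lymphoid markers summed to 31.3 and 1.07 CPM, with Il7r, the 1 at a mean of 1 CPM, lower at 31.3 and 0.582, and Rag1 and Cd3e at 0. Neural markers summed to 8.07 and 7.04 CPM, with Snap25 and Rbfox3 at 0. Mesenchymal markers summed to 548 and 454 CPM, of which Pdgfrb gave 543 and 451, with 0 of 3 called. Postn was at 0, Lum, Lepr, Dcn and Col3a1 had 0 to 4 counts, Cxcl12 had 45 and 22, and Col1a2, under a mean of 1 CPM, had 1 and 23. These marker levels differ in the same comparison as Cdkn1c, Igf2r and Peg13, and their part in those differences was not tested.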

How the data were processed

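For every one of 34745 gene models, the files deposited by the authors list raw counts and FPKM, 1 column of each per library (per the file headers). Coordinates are on GRCm38. HISAT2 2.0.4 and GRCm38 are named in the submitters' processing notes. Steps not given in the sources used here were the counting program, annotation release, strandedness and duplicate handling. The deposited FPKM divides by a length that exceeded the model's own span for 5 of 27 members and 879 of 13661 models. It was within 1% of the summed distinct exons of GENCODE M21 in 69.8% of models, so levels per length used CPM per kilobase of merged GENCODE M21 exons instead. All 38 members matched GENCODE M21 by identifier, 22 with identical start and end. The merged exons were longer than the deposited span for Kcnq1ot1, Zrsr1, Ndn and Phlda2, so their levels per length are uncertain.

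Counts were scaled with TMM in edgeR 4.0.16 (R 4.3.3). The 95% interval of a ratio is the exact Clopper-Pearson interval of the 2KR share of a gene's counts, converted with the scaled totals (scipy 1.17.1). The log2 ratio used a pseudocount of 1 CPM. Scripts were tested on simulated data. Sequences are from RefSeq on GRCm38.p6. The allele classes and clusters of members are textbook assignments.

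The members and lists were chosen with earlier results of these data known. All members with at least 10 counts in either library were named, with the others given by their counts. The imprint control factors and the further imprinted genes are each represented by the 4 largest log2 ratios at most and by the 2 highest means. Kcnq1 and single cell type markers were named without following this rule. Neighbours were named for 2-fold different members, as were models of 10 or more counts overlapping a named member. Cdkn1b, M6pr, Igf1r, Mcts1, Zrsr2, Id1, Zcchc3, Tspan32, Osbpl5, Chrac1, Copg2, Herc3 and the genes at 0 counts were named outside this rule after their values were seen. Fam135b was named in the same way. Alternatives were other pseudocounts, filters, scalings, centring and fold limits.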

Additional observations from a re-analysis of the deposited data

How the results depend on the processing

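Cdkn1c was past 2-fold under every pseudocount, scaling and centring tried, with log2 ratios from 1.31 to 2.25. Igf2r kept its direction in all of them, with log2 ratios from -1.58 to -0.64, but was under 2-fold with a pseudocount of 5 (-0.91) and on deposited FPKM with a pseudocount of 1 (-0.64). Deposited FPKM of Igf2r was 1.16 in WT and 0.386 in 2KR, so a pseudocount of 1 is large beside these levels. The cause of the lower Igf2r level was not tested. The number of members called was 1 with a pseudocount of 5, 1 on FPKM and 0 at a 4-fold limit, against 2. Of 109 values of single members under alternatives, 106 stayed within the counting error. The 109 include values under other filters, which keep or drop a gene and cannot change its ratio, so those could not move. H19, whose ratio is near 1, was the member whose sign changed. The median log2 ratio of the members ran from -0.03 to 0.06.

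The number of imprint control factors called was 1 under every pseudocount, filter, scaling and centring tried, with 3 at 1.5-fold and 0 at 4-fold. Of the further imprinted genes, 3 were called, with 4 under a pseudocount of 0.1, 1 under a pseudocount of 5, 1 at a mean of 5 CPM, 1 on FPKM, 1 at 4-fold and 9 at 1.5-fold; Slc22a3 was not called with a pseudocount of 5 or on FPKM. No paired analysis was possible because each form has 1 library. Depth limits the genes under 10 counts: 3 counts are 0.172 CPM in WT and 0.146 in 2KR, and variation between cultures was not measured.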
